A study of Homo sapiens with 2 samples.

Results

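The regions described here were NUDT21 CUT&Tag peaks inside annotated 3′ UTRs but away from gene ends. A peak belonged to the set when its nearest edge lay more than 3000 bp from every GENCODE release 44 transcript start, when its summit lay in a 3′ UTR of a protein-coding gene, and when that summit lay more than 1000 bp from the annotated 3′ end of every protein-coding gene. The rule used positions only and no signal value. On chromosomes 1 to 22, X and Y it found 1260 of 92722 peaks in replicate 1 and 962 of 66671 peaks in replicate 2. The set was thus 1.36% and 1.44% of all peaks, or 2.77% of the 45562 and 3.16% of the 30462 peaks outside promoters, where promoters are the sequence within 3000 bp of a transcript start. The mean number of members was 1111 ± 211 (SD, n = 2).

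Both samples came from J.gamma1, an established human line of T-ALL (acute lymphoblastic leukemia of T cells), and were stained with an antibody against NUDT21. They were separate biological replicates of 1 group, with no drug, knockdown or control antibody sample. In CUT&Tag, antibody-bound chromatin is cut by a tethered transposase and the released fragments are sequenced. The signal therefore has no strand, and it marks chromatin rather than RNA.

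NUDT21 is the RNA-binding subunit of cleavage factor I (CFIm), a complex of the 3′ end processing machinery. CFIm binds UGUA in nascent RNA, and such sites upstream of a cleavage site favour its use, often the distal site of a long 3′ UTR. Alternative polyadenylation (APA) within a 3′ UTR changes which regulatory sequence the mRNA carries, so 3′ UTR interiors are where proximal and distal sites are told apart.

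Sequences at members with high fold enrichment in both replicates are shown to let the base composition at the summits be seen. All were read from hg38 on the strand of the gene. The first 3 are the 29 bases centred on the replicate 1 summit, with each CG in capitals, for SDR42E2 (chr16:22190708-22190736, plus strand), GIPR (chr19:45681842-45681870, plus strand) and SH3BP2 (chr4:2837985-2838013, plus strand).
SDR42E2: tggtCGgcccagaCGCGtagcccCGagtc
GIPR: ccCGggCGaggtccccaccagcCGCGgct
SH3BP2: taccctccttCGgacccctaggaagcttc
SDR42E2 and GIPR each held 4 CG in these 29 bases and had 72.4% and 82.8% GC, whereas SH3BP2 held 1 and had 58.6% GC.

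The next sequence holds TGTA, the DNA form of the CFIm site, within 100 bp of the replicate 1 summit, with TGTA in capitals and 12 bases on either side. It came from KMT2E (chr7:105112664-105112691, plus strand).
KMT2E: aggaccgcacctTGTAcaacagccgaat
The sequences were chosen for display after their values had been seen.

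To describe what these 3′ UTR peaks share, the sequence within 100 bp of each summit was compared with 97030 windows of the same length. They were laid end to end in the 3′ UTR sequence open to the rule, 22.8 Mb in 10935 genes. Stretches shorter than 201 bp, and the remainders of longer ones, gave no window. The summits were GC-rich. Their median GC was 60.2% (95% order-statistic interval 60.2 to 60.7) in replicate 1 and 59.7% (59.2 to 60.2) in replicate 2, against 40.3% in the windows. Only 1 member of replicate 1 and 2 members of replicate 2 had less than 45% GC, although 65.4% of the windows did. This composition was not particular to 3′ UTRs, since all peaks of the 2 lists had medians of 60.2% and 59.7%, and peaks outside promoters had 59.2% and 58.7%. GC peaked at the summit itself: sequence centred 500 bp upstream and downstream had medians of 53.2% and 51.7% in replicate 1, and 53.7% and 53.2% in replicate 2.

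Members were unevenly spread over 3′ UTR sequence of different GC. Below 45% GC there were 0.0158 members of replicate 1 per 1000 windows, and from 45 to 55% there were 7.07. From 55 to 65% there were 101, and at 65% or more there were 126.4. Replicate 2 gave 0.0315, 6.37, 74.6 and 95.9 members per 1000 windows in the same order. In both replicates the density thus rose at each step of GC. Members in stretches too short to give a window were still counted, so members and windows do not cover quite the same sequence. Over all eligible sequence there were 55.2 members per Mb in replicate 1 and 42.2 in replicate 2. Sequence more than 3000 bp from a transcript start held 18.8 and 12.6 peaks per Mb, so the 3′ UTR density was 2.93 and 3.35 times as high, without any allowance for GC content or for how well reads map.

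The CFIm motif was next counted on the gene strand. TGTA was present within 100 bp of the summit in 365 of 1260 members of replicate 1, or 29.0% (Wilson 95% interval 26.5 to 31.5), and in 280 of 962 members of replicate 2, or 29.1% (26.3 to 32.1). The opposite strand held it in 29.7% and 30.9%, so the share on the gene strand was not the higher one. The windows of eligible 3′ UTR held TGTA in 60.6%, and all peaks, read on the plus strand, in 33.0% and 32.9%. Intervals of this kind cover counting error only, since neighbouring peaks share sequence and gene.

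Because TGTA is AT-rich, the same count was made at matched GC content. Between 45 and 55% GC, 50.3% of replicate 1 members (42.7 to 57.9) and 48.3% of replicate 2 members (40.4 to 56.3) held the motif, against 52.3% of windows. Between 55 and 65% GC the shares were 28% (25.2 to 31.0) and 28% (24.7 to 31.5), against 31.0% of windows. At 65% GC or more they were 14.5% (10.2 to 20.3) and 13.5% (8.80 to 20.1), against 13.7%. In each of these 3 classes the intervals of both replicates included the value of the windows of like GC.

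**Figure D1:**
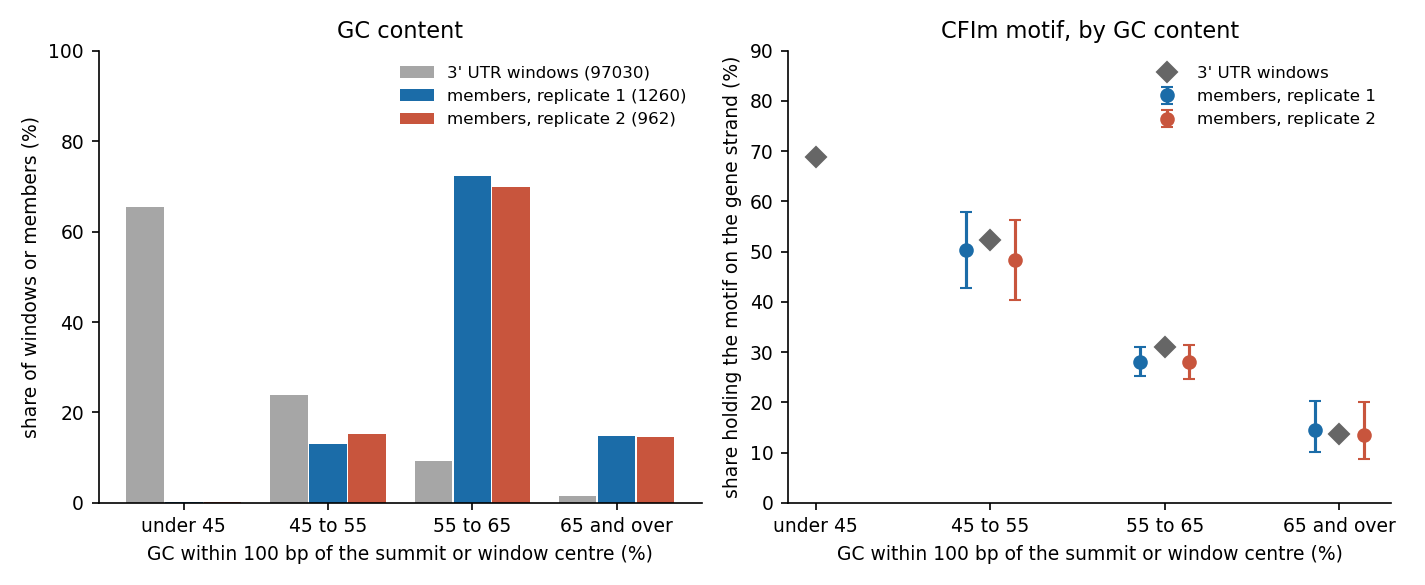
GC content and the CFIm motif at 3′ UTR peaks away from gene ends. The left plot gives the share (%) of 97030 eligible 3′ UTR windows, of 1260 members of replicate 1 and of 962 members of replicate 2 in each GC class, and the right plot the share (%) holding the motif on the gene strand within 100 bp of the summit or in the window, with Wilson 95% intervals for members. Members are nearly absent below 45% GC, where 65.4% of windows lie, and in the other classes the motif shares of members (50.3, 28 and 14.5% in replicate 1) lie near those of the windows (52.3, 31.0 and 13.7%). The lowest class is not drawn for members, which number 1 and 2 there.

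The 2 most common polyadenylation signals, the hexamers that CPSF recognises upstream of a cleavage site, were rare at the summits. AATAAA was present on the gene strand in 1.90% of members of replicate 1 and 1.56% of replicate 2, and ATTAAA in 0.87% and 0.62%. In the eligible windows the shares were 14.8% and 12%. Between 55 and 65% GC, however, AATAAA stood in 1.65% and 1.34% of members and 1.71% of windows. Annotated 3′ ends of other protein-coding transcripts lay within 200 bp of 9.44% of summits in replicate 1 (8.0 to 11.2) and 9.88% in replicate 2 (8.1 to 11.9), and of 11.9% of windows. The share was thus no higher than in the windows, but it was not computed at matched GC content. Ends of any protein-coding gene on either strand were counted, so they need not be proximal ends of the member's own gene.

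Not all members lay in a classical 3′ UTR. In replicate 1, 675 summits lay in a last exon that reached the 3′ end of the gene, 330 in a last exon of a shorter transcript, and 255 in an exon before the last. Replicate 2 gave 522, 240 and 200. Of the members in an exon before the last, 252 of 255 and 192 of 200 owed their 3′ UTR to transcripts of types other than protein_coding, such as nonsense-mediated decay models, in which an early stop codon turns later exons into 3′ UTR. Accordingly, 336 members of replicate 1, or 26.7% (24.3 to 29.2), and 279 of replicate 2, or 29.0% (26.2 to 31.9), had a summit that was also coding sequence in another transcript, a mean of 27.8% ± 1.65 (SD, n = 2). Of the eligible windows, 6.24% had their centre in coding sequence. Stretches shorter than 201 bp, such as short exons, gave no window, so this share does not cover them. With 3′ UTRs taken from protein_coding transcripts alone, 913 and 690 members remained and the coding share fell to 4.82% and 7.10%.

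The rule itself kept summits more than 1000 bp from every gene end. Distances to the gene end were measured along the genome, so they can include introns, and they were not computed for the windows. The median distance to the 3′ end of their own gene was 3645.5 bp in replicate 1 and 3496.5 bp in replicate 2, and 325 and 227 members lay more than 10000 bp away. At the edge of the rule the members closest to a gene end were SSTR3 at 1002 bp (fold 2.63) and FAM118A at 1009 bp (fold 4.66) in replicate 1, and C1QTNF6 at 1004 bp (fold 4.49) and BDH1 at 1006 bp (fold 3.30) in replicate 2. The nearest peaks outside it lay at 1000 and 998 bp with folds of 3.22 and 5.18 in replicate 1, and at 1000 and 993 bp with folds of 3.72 and 7.93 in replicate 2.

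Each member was then asked whether it touched a peak of the other replicate by at least 1 bp. In replicate 1, 728 of 1260 members did, or 57.8% (55 to 60.5), and 532 did not. The share over all replicate 1 peaks was 56.4%, and over its peaks outside promoters 49.6%. In replicate 2, 824 of 962 members touched a replicate 1 peak, or 85.7% (83.3 to 87.7), and 138 did not. Over all replicate 2 peaks the share was 85.7%, and outside promoters 80.0%. The members thus sat at the level of all peaks and above that of peaks outside promoters. Peaks outside promoters and within 1000 bp of a gene end gave similar shares, 56.5% of 1486 and 86.1% of 1126, as did peaks in coding exons, 56.8% of 1421 and 86.1% of 1020.

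Members were close to all peaks under stricter definitions of overlap but below them in lists of equal length. An overlap of 50% of both peaks was reached by 41.2% of replicate 1 members and 55.5% of replicate 2 members, against 39.2% and 54.5% of all peaks. A summit of the other list within 200 bp was found for 37.5% and 50.6% of members, against 36.0% and 50.1% of all peaks. With both lists limited to the 30000 peaks of highest −log10 p, which makes them equal in length, 61.1% of 388 members and 66.2% of 411 members touched, against 65.6% and 74.3% of those 30000 peaks. The 30000 include promoter peaks. Neither the share over those outside promoters nor an interval for the members was computed in these lists.

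The touching share rose with the significance of the peak. Ordered by the −log10 p of the authors' peak caller and divided into 5 equal parts of the whole list, members of replicate 1 touched in 25.6% of cases in the lowest part (20.5 to 31.5) and in 44.9%, 55.4%, 74.6% and 91.9% in the parts above. The other peaks outside promoters gave 25.5%, 37.8%, 51.5%, 68.5% and 90.3%. In replicate 2 members touched in 67.3% of cases in the lowest part (60.8 to 73.2) and in 86.4%, 88.9%, 91.3% and 100% above it, the last with 134 of 134, against 63.6%, 73.9%, 83.8%, 92.5% and 98.6%. The members' intervals lay above the other peaks' values in the second part of both lists, the fourth part of replicate 1 and the third part of replicate 2, and included them elsewhere. In the lowest part of replicate 1 the median summit had 23 fragments among members, and in the highest part 45.

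**Figure D2:**
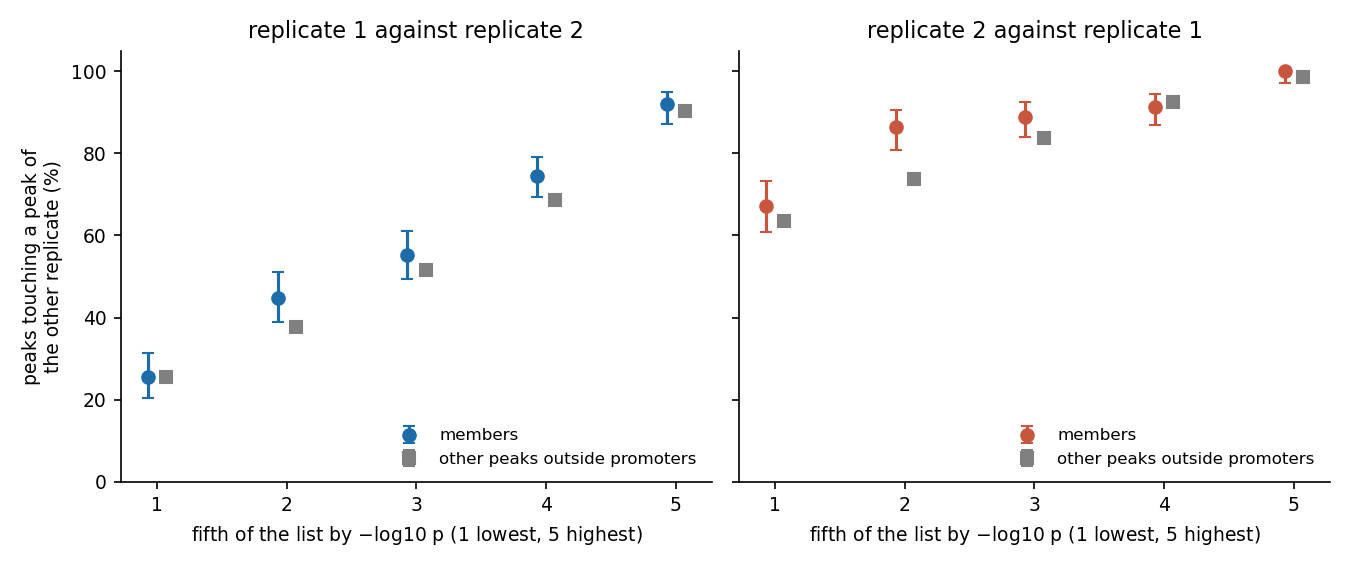
Share of peaks (%) touching a peak of the other replicate, by 5 equal parts of each list's −log10 p, with Wilson 95% intervals. Coloured circles are 3′ UTR peaks away from gene ends and grey squares all other peaks outside promoters, whose intervals are mostly smaller than the symbol. The share of members climbs to 91.9% in the highest part of replicate 1 and to 100% in that of replicate 2, and the other peaks climb alongside.

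Touching and other members differed in signal and size. The median fold enrichment at the summit was 4.31 (4.16 to 4.43) in touching and 3.46 (3.35 to 3.60) in other members of replicate 1, and 4.18 (4.10 to 4.32) and 3.51 (3.30 to 3.69) in replicate 2. The difference of medians was 0.76 ± 0.13 (SD, n = 2). The number of fragments over the summit, recovered from the fold and p of each peak, had medians of 34 and 26 in replicate 1 and of 20 and 16 in replicate 2. The recovered local background, in contrast, was nearly equal in the 2 classes. Its medians were 6.07 and 6.0 in replicate 1, in pileup units scaled by 0.921, and 3.9 fragments in both classes of replicate 2. Touching members were also longer, with medians of 878.5 against 447 bp in replicate 1 and of 702.5 against 423.5 bp in replicate 2. The part of length in the touching share was not tested.

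They differed less clearly in sequence. Median GC at the summit was 60.7% in touching and 59.7% in other members of replicate 1, and 60.2% and 56.7% in replicate 2, a difference of 2.24 ± 1.76 percentage points (SD, n = 2). TGTA on the gene strand was present in 26.6% of touching and 32.1% of other members of replicate 1, a difference of -5.49 points (Newcombe 95% interval -10.6 to -0.42). In replicate 2 it was present in 26.9% and 42.0%, a difference of -15.1 points (-23.9 to -6.58). The motif was therefore less frequent at members found in both replicates, with a mean difference of -10.3 ± 6.78 points (SD, n = 2). On the opposite strand the shares were 28.2% and 31.8% in replicate 1 and 30.7% and 31.9% in replicate 2, and both intervals of the difference included 0. The lower share was not particular to the summit. Centred 500 bp upstream, TGTA on the gene strand stood in 39.3% of touching and 45.5% of other members of replicate 1. In replicate 2 these shares were 36.7% and 50.7%. Centred 500 bp downstream they were 44.5% and 47.7% in replicate 1 and 42.4% and 51.4% in replicate 2.

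**Figure D3:**
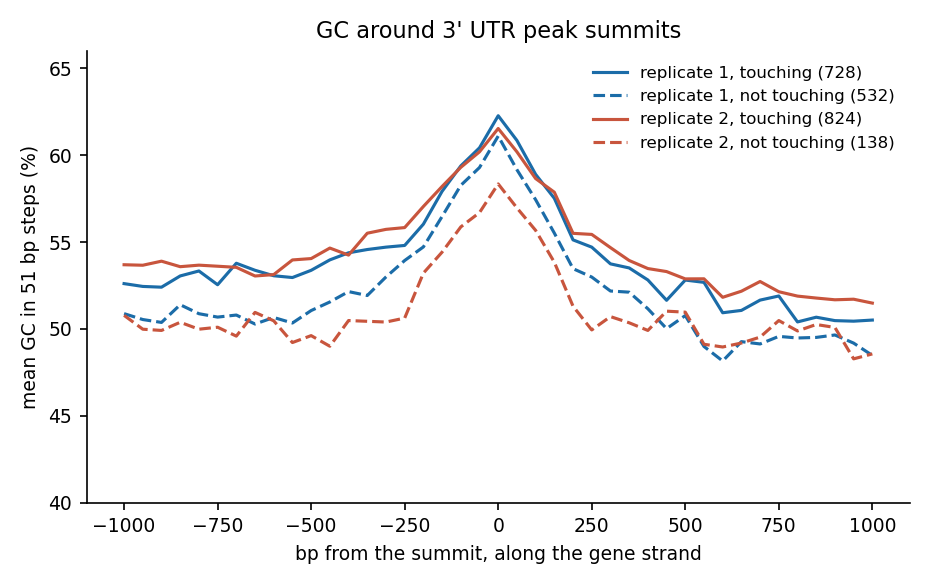
Mean GC (%) in steps of 51 bp from 1000 bp upstream to 1000 bp downstream of the summit, along the gene strand, for members that touch a peak of the other replicate (solid) and those that do not (dashed). At the summit the means were 62.3% and 61.1% in replicate 1 and 61.5% and 58.3% in replicate 2, and all 4 curves fall toward 48.5 to 53.7% at the ends of the plot.

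Neither difference was steady once composition or the definition of touching was changed. Between 45 and 55% GC, TGTA stood in 54.9% of 71 touching and 46.7% of 92 other members of replicate 1, but in 44% of 100 and 57.4% of 47 in replicate 2, which are opposite directions. Between 55 and 65% GC the touching members were lower in both, with 25.8% against 31.3% and 27.2% against 33.8%, as they were at 65% or more, with 13.2% against 16.7% and 12.2% against 30%, the last of only 10 members. Touching itself went with GC: it was seen in 43.6% (36.2 to 51.2), 59.7% (56.4 to 62.8) and 61.3% (54.1 to 68.0) of replicate 1 members in the 3 GC classes from 45% upward, and in 68.0% (60.1 to 75.0), 88.1% (85.4 to 90.3) and 92.9% (87.4 to 96.1) in replicate 2. When touching required an overlap of 50% of both peaks, the difference in GC dropped to 0.25 points and that in TGTA to -2.63 points.

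The word gccTGTAatc belongs to the consensus of the Alu repeat, which is present in many copies across the genome. Of the words of 10 bases around TGTA it was the most frequent on the gene strand over both lists, with 22 members in replicate 1 and 12 in replicate 2, and it was chosen for that reason after the values were seen. On either strand it was found within 100 bp of the summit in 33 members of replicate 1, or 2.62% (1.87 to 3.66), and in 24 of replicate 2, or 2.49% (1.68 to 3.69). The eligible windows held it in 2.95% and all peaks in 7.07% and 5.56%. Of touching members 1.65% held it in replicate 1 and of other members 3.95%, and in replicate 2 the shares were 1.94% and 5.80%. The word tttTGTAttt, with 16 and 12 on the gene strand, was present on either strand in 38 and 22 members, or 3.02% and 2.29%, against 3.01% of windows and 7.40% and 5.59% of all peaks. It was held by 1.51% of touching and 5.08% of other members of replicate 1, and by 1.82% and 5.07% in replicate 2. The word gccTGTAgtc, a close variant of gccTGTAatc, was present on the gene strand in 14 and 7 members. On either strand 0.82% of touching and 2.26% of other members held it in replicate 1, and 0.85% and 2.17% in replicate 2. Members without gccTGTAatc held TGTA on the gene strand in 27.3% and 27.5%, close to the shares over all members. Only gccTGTAatc was left out there, so any TGTA in other Alu sequence remained in these shares. Whether tttTGTAttt and gccTGTAgtc came from Alu copies was not tested.

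The exon class differed little between touching and other members. The share of touching members was 57.5% in last exons that reached the gene end, 58.2% in last exons that ended upstream and 58.0% in earlier exons of replicate 1, and 85.2%, 87.9% and 84.0% in replicate 2. Coding sequence was present at the summit of 27.2% of touching and 25.9% of other members of replicate 1, and of 28.8% and 30.4% in replicate 2, with intervals of the difference that included 0. Touching members lay closer to the 3′ end of their gene in replicate 2, with medians of 3380 bp (3116 to 3778) against 4268.5 bp (3317 to 5436), and less so in replicate 1, with 3627.5 against 3736 bp. The distance to the nearest transcript start had medians of 6305 against 7502.5 bp in replicate 2 and of 6421.5 against 6673.5 bp in replicate 1. In both measures the intervals of the medians overlapped. The genes themselves usually had other peaks. A promoter peak of the same list was present for 96.7% of touching and 95.1% of other members in replicate 1, and for 92.6% and 85.5% in replicate 2. Of all eligible genes 69.8% and 54.7% had such a peak. A peak at the gene's own 3′ end was less common, with 29.7% against 21.8% in replicate 1 and 26.5% against 16.7% in replicate 2, differences of 7.87 (2.97 to 12.6) and 9.79 points (2.12 to 15.9). Of all eligible genes 8.57% and 6.57% had one. For promoter and gene-end peaks alike, the shares of members count peaks, so a gene with several members counts more than once. The shares of eligible genes count genes, without regard to their length or GC, so the 2 kinds of share are not directly comparable.

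The peak met in the other replicate was usually a member as well. This held for 76.5% of touching members of replicate 1 and 70.9% of replicate 2, while in 2.06% and 8.62% it was a promoter peak that reached into the 3′ UTR. There were 557 such member pairs in 552 merged regions. Across these pairs the fold enrichments of the replicates rose together, with Spearman's rho of 0.609 and Pearson's r of 0.636 on log2 values, given as a description across regions that share both libraries and any shared background. The median distance between paired summits was 74 bp, and 72.7% lay within 200 bp of each other.

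**Figure D4:**
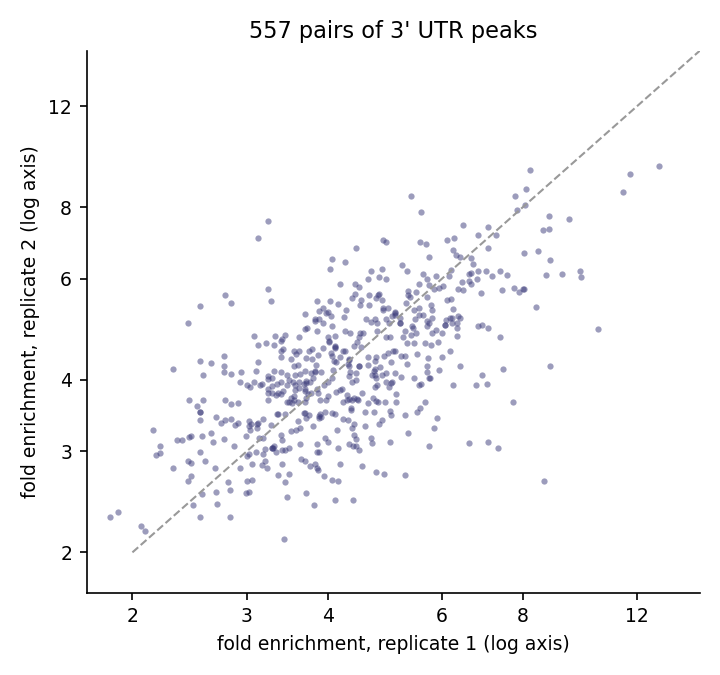
Fold enrichment at the summit in replicate 1 (x axis) and replicate 2 (y axis) for the 557 pairs of members, both on log axes, with the dashed line marking equal values. The points rise together (Spearman's rho 0.609) and medians are 4.25 in replicate 1 and 4.13 in replicate 2. Folds of the 2 lists are not on a common scale, so the line and the medians do not compare the strength of the replicates.

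The 10 pairs with the lowest sum of fold ranks came from genes of different function, and their values are a description since fold chose them. The first was SDR42E2, a gene of the short-chain dehydrogenase family, with a fold of 13.0 in replicate 1 and 9.43 in replicate 2 and with 231 and 82 fragments at the summits (chr16:22189609-22191480 and chr16:22189589-22191428). KMT2E, a chromatin protein that reads methylated histone H3, had folds of 11.4 and 8.51 from 62 and 29 fragments. Its summit was at the same base in both lists, and it lay in the 3′ UTR of non-protein_coding types only, where other transcripts are coding.

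A further 7 pairs had folds between 7.34 and 9.42. PLXDC1, a transmembrane protein, had 8.21 and 9.27, and PMPCA, a subunit of the mitochondrial processing peptidase, had 9.42 and 7.63. SH3BP2, an adaptor of immune signalling, had 8.11 and 8.62, and MPRIP, which binds myosin phosphatase, had 8.78 and 7.73. GIPR, the receptor of gastric inhibitory polypeptide, had 8.07 in both lists with its summit also in coding sequence, and PTK6, a cytoplasmic tyrosine kinase, had 7.79 and 8.36. In these 7 pairs, which include P2RY8, the recovered background lay below the member medians of 6.0 and 3.9 at all but SH3BP2. In replicate 1 it was lowest at MPRIP and P2RY8, with 2.58. In replicate 2 it was lowest at PLXDC1, MPRIP and P2RY8, with 1.59. A low background raises the fold. Of the 10 pairs, KMT2E and P2RY8 held TGTA on the gene strand within 100 bp of the summit.

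The tenth pair, P2RY8, a G protein-coupled receptor gene, had folds of 8.78 and 7.34 on chromosome Y. The peak intervals lay in a pseudoautosomal stretch that is identical on chromosome X, and each list also had a peak at the same coordinates of X. Reads cannot be assigned to either copy, so the X and Y peaks cannot be told apart. Replicate 1 had 3 members and replicate 2 had 1 member on chromosome Y, all of them in sequence that is identical on X.

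Members without a counterpart reached folds of at most 8.49 in replicate 1 and 6.95 in replicate 2. The 3 highest of replicate 1 were MICALL1, a protein of endocytic recycling, with a fold of 8.49 from 48 fragments, ZBED4, a zinc finger protein, with 8.27 from 31, and HMGB1, an abundant chromatin protein, with 8.12 from 43. In replicate 2 they were 2 peaks in DYRK1A, a protein kinase, with 6.95 and 6.57 from 17 and 16 fragments, and GVQW3 with 6.36 from 16. The DYRK1A summits lay 7592 and 3259 bp upstream of the gene's 3′ end in the same last exon. ZBED4, HMGB1 and GVQW3 held TGTA on the gene strand near the summit, and MICALL1 and both DYRK1A peaks did not.

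Counted by gene, 1003 of 10935 eligible genes, or 9.17%, held a member in replicate 1 and 766, or 7.01%, in replicate 2. Both lists had a member in 542 genes, which is 54.0% of the first number and 70.8% of the second. A single gene held at most 5 members in replicate 1 and 6 in replicate 2, and 197 and 145 genes held 2 or more. HEMK1, a methyltransferase of release factors, had the most members over both lists, with 5 in each, and all 10 touched the other list. Their folds lay between 3.35 and 5.69 in replicate 1 and between 3.16 and 4.13 in replicate 2.

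The next genes were FAM83F with 3 and 6 members, TRIOBP, an actin-binding protein, with 4 and 5, LRPAP1, a chaperone of lipoprotein receptors, with 4 and 4, and WTIP, a LIM domain protein, with 5 and 3. Of these, all but 1 of FAM83F in replicate 2 and 2 of WTIP in replicate 1 touched the other list. LRPAP1 stood apart in its sequence, since 94.6% of the words of 20 bases in its highest peak of replicate 1 (fold 8.81) occurred more than once within that peak, and 87.8% in the matching peak of replicate 2 (fold 4.23). The part of such tandem copies in this fold was not tested. Among all members, 1.98% and 1.35% had more than 10% of repeated words.

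In FAM83F, the replicate 1 summits lay 6751, 9455 and 12061 bp upstream of the gene end with folds of 5.45, 4.01 and 4.97. Replicate 2 had summits at 6784, 9339 and 11703 bp with folds of 5.30, 3.76 and 3.88. Its 3 further members lay at 4811, 12800 and 13907 bp with folds of 3.06, 3.53 and 3.66, and the first of these was the member without a counterpart. The member at 13907 bp met a replicate 1 peak of fold 6.44 whose summit, at 14625 bp, lay upstream of the 3′ UTR.

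**Figure D5:**
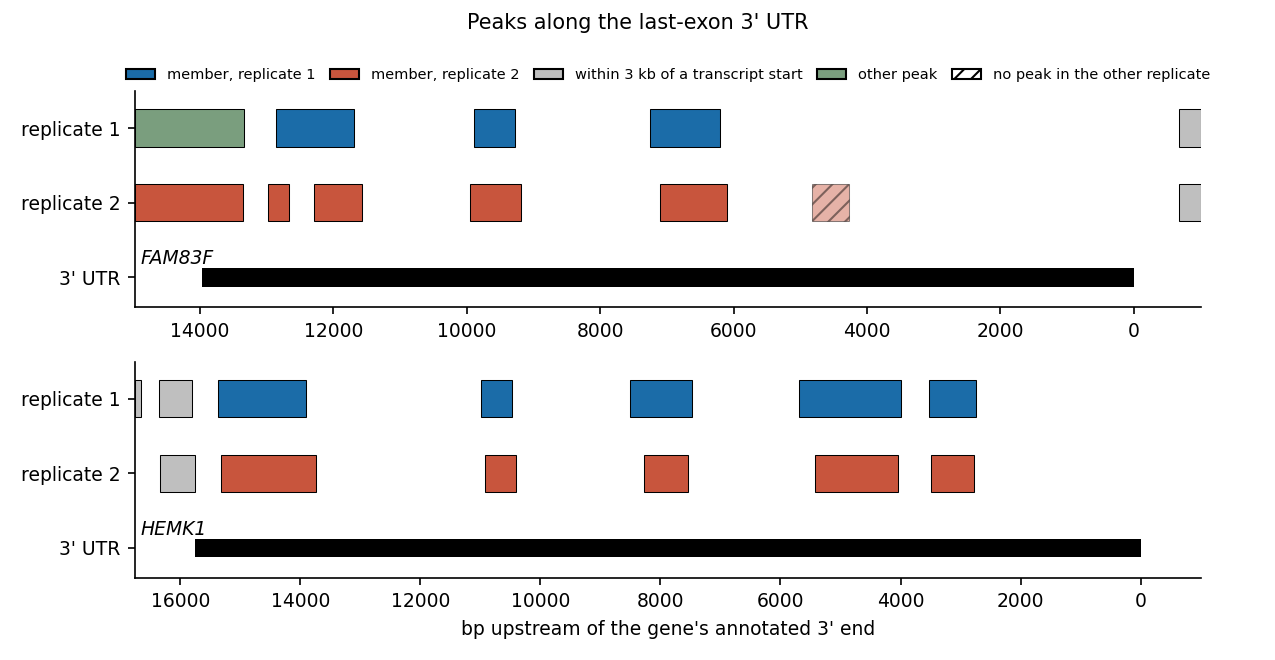
Peaks of both replicates along the last-exon 3′ UTR of FAM83F (13969 bp) and HEMK1 (15751 bp), plotted as bp upstream of the annotated 3′ end of the gene, with 1000 bp shown beyond either side. Coloured bars are members, grey bars peaks within 3 kb of a transcript start, the green bar another peak, and the hatched pale bar has no peak in the other replicate. FAM83F has 3 members in replicate 1 and 6 in replicate 2, whereas the 5 members of HEMK1 lie at like positions in both.

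Of 14 genes whose 3′ UTR length is known to respond to NUDT21, CCND1, DICER1, TIMP2, VMA21, PAK1, PAK2, IGF1R, WDR5, UBE2D3, UBE2N and UBE2J1 among them, 13 had eligible sequence and 2 held members in each list. The share over all eligible genes was 9.17% and 7.01%. IGF1R, a growth factor receptor, had 2 members in replicate 1 with folds of 3.98 and 4.63 and 1 in replicate 2 with a fold of 4.76. None of them touched the other list, although all lay in the same last exon. For CCND1, DICER1, TIMP2, VMA21, PAK1, PAK2, WDR5, UBE2D3, UBE2N and UBE2J1, no peak of either list met the rule.

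Of 20 genes with a role in T-ALL or T-cell development, NOTCH1, NOTCH3, MYC, MYB, RUNX1, GATA3, ETV6, TCF7, LEF1, BCL11B, TAL1, LMO2, IKZF1, BCL2, CDK6, IL7R, TCF12, TCF3 and ETS1 among them, 18 had eligible sequence, and 4 held a member in each list, 6 in either and 2 in both. Over all eligible genes the shares were 9.17% and 7.01% in the lists and 11.2% in either. CDK6, a kinase of the G1 phase, had folds of 8.0 and 5.76 from 51 and 24 fragments at summits 3924 and 3919 bp upstream of its 3′ end. TCF7, a transcription factor of T-cell commitment, had folds of 4.35 and 5.56. NOTCH1, the receptor most often mutated in T-ALL, had a member in replicate 2 with a fold of 6.35, and NOTCH3 had one with 3.88. Both touched a replicate 1 peak and both summits were coding sequence in another transcript. ETV6 (5.78) and TAL1 (3.11), transcription factors of blood development, had 1 each in replicate 1, and neither touched.

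Genes with the ZNF prefix, mostly zinc finger genes, held 27 members in replicate 1 and 21 in replicate 2, or 2.14% and 2.18% of members. They made up 3.48% of the eligible genes. The first shares count peaks and the last counts genes, without regard to their length or GC, so they are not directly comparable. Of the ZNF members 15 and 16 touched the other list. Summits that lay in the 3′ UTRs of more than 1 gene numbered 16 and 17, and for them the gene that CUT&Tag marks cannot be told apart.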

How the data were processed

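NUDT21 CUT&Tag of J.gamma1 cells was available as 2 peak lists, 1 for each replicate of 1 group, assigned from the sample titles. Per the study's methods, the authors cleaned the reads with fastp, aligned them to hg38 and dropped duplicates with Picard before peak calling. The deposited files hold 1 peak list for each replicate. The submitters' processing notes name fastp, Bowtie2 2.2.5, MACS3 3.0.1 and hg38. The deposited values of the authors were the fold enrichment at the summit (a ratio) over the local background, the −log10 p and −log10 q, a score that was not used, and the position of the summit. Lists held 97162 and 68532 peaks. Read totals are not given in the sources used here, so the absolute depth is unknown.

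The fragments over each summit and the local background were recovered from fold and −log10 p by the Poisson tail that MACS uses. A solution was found for 99.97% of peaks in replicate 1, with its pileup scaled by 0.921, and for 100% in replicate 2. A scaled pileup arises with a control library, which the methods do not describe. 3′ UTRs were taken from every GENCODE release 44 transcript with coding sequence in a protein-coding gene, and motifs were searched in hg38. TGTA and the hexamers AATAAA and ATTAAA were searched as exact words, each strand on its own, within 100 bp of the summit. TGTA is contained in neither hexamer.

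Shares carry Wilson 95% intervals, differences of shares Newcombe intervals, and medians order-statistic intervals. With 2 samples in 1 group there was no test between groups. Functions were tested on simulated data. Python 3.11.15, pandas 2.3.3, scipy 1.17.1 and pysam 0.24.0 were used.

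Named genes were the 10 member pairs with the lowest sum of fold ranks, the 3 highest members of each list without a counterpart, the 5 genes with most members, the members nearest the 1000 bp limit, and both gene lists. Members, lists and rules were chosen with earlier results of these data known. Alternatives concerned transcripts, gene ends, distances, peak thresholds, the overlap required, the window, and each replicate alone. Some genes and sequences of these sets are not reported here.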

Additional observations from a re-analysis of the deposited data

Results flagged for a closer look

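Replicate 1 held 4440 peaks and replicate 2 held 1861 peaks on sequences other than chromosomes 1 to 22, X and Y, or 4.57% and 2.72% of the deposited peaks. No 3′ UTR members were sought there, since the rule is limited to the main chromosomes. Outlying samples cannot be identified with 2 replicates.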

How the results depend on the processing

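The measures were recomputed under alternatives that kept both replicates, giving 58 values. Of these, 42 stayed within the spread between the replicates or, for counts, within 1.5 times the value, 16 moved further, and 0 reversed. The spread was the SD of 2 values, and for the touching share, read from lists of unequal length, it was 19.7 points. Staying within it is thus a weak criterion. No paired analysis was possible because there was no second group to pair the replicates with. Values are means of both replicates.

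The number of members was 1742 with starts at 1000 bp, 729.5 with starts at 5000 bp and 399.5 in lists limited to their 30000 most significant peaks, against 1111. The coding share, 27.8%, was 5.96% with protein_coding transcripts only, 29.6% with the ends of all transcripts, 24.6% and 33.3% with gene ends at 500 and 2000 bp, and 31.7% and 26% with starts at 1000 and 5000 bp. The touching share, 71.7%, was 48.3% with an overlap of 50% of both peaks and 44% with summits within 200 bp. The difference in fold, 0.76, was 0.45 with 30000 peaks, 0.50 with the 50% overlap and 0.48 with summits. The difference in GC was 0.25 points and that in TGTA -2.63 points with the 50% overlap. With 30000 peaks, the GC difference of replicate 1 was -0.50. The cause was not tested.

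Each replicate alone gave 962 to 1260 members, touching shares of 57.8 to 85.7%, differences of 0.67 to 0.85 in fold, 1.00 to 3.48 in GC and -15.1 to -5.49 in TGTA, and coding shares of 26.7 to 29.0%. The median number of fragments over the summit was 16 in members of replicate 2 without a counterpart and 20 in its touching members. In replicate 1 these medians were 26 and 34.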

Other observations

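Members were counted on chromosomes 1, 17, 19 and 22 after the other results. The shares of all peaks and of eligible sequence on these chromosomes were not computed, so the counts do not show whether members were enriched there. Chromosome 1 held 126 members of replicate 1 and 94 of replicate 2, chromosome 17 held 124 and 108, chromosome 19 held 113 and 93, and chromosome 22 held 88 and 83. The observed to expected ratio of CG at the summits, which is near 1 where CG is not depleted, had medians of 0.319 and 0.310 in members, 0.330 and 0.309 in all peaks, and 0.190 in eligible 3′ UTR windows. Peaks in coding exons had 0.407 and 0.399.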
